A study of Mus musculus with 22 samples.

Results

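The genes described here encode semaphorins, their plexin receptors, the Slit and netrin ligands and the Robo and Unc5 receptors, the guidance families that were first studied in growing axons and that also steer blood vessels. The table of counts held 44 of them among 24454 gene symbols, chosen by symbol alone: 20 semaphorins, 9 plexins, 3 Slit genes, 4 Robo genes, 4 netrins and 4 Unc5 genes. Their RNA was measured in 22 bulk libraries of 25 cells each, sorted from the Aorta-Gonad-Mesonephros (AGM) of wild-type C57BL/6 mouse embryos, the region where the first haematopoietic stem and progenitor cells (HSPCs) arise from endothelium in the endothelial-to-haematopoietic transition. The cells received no treatment and were stained for VE-Cadherin, CD44 and Kit. VE-Cadherin-positive cells were split into CD44Neg (10 libraries, labelled endothelial cells, with 4 from E9.5 embryos, 3 from E10 and 3 from E11), CD44LoKitNeg (6 libraries, labelled hemogenic endothelial cells, with 1, 2 and 3 libraries at these stages), CD44LoKitPos (3 libraries, labelled Pre-HSPC, 1 at E9.5 and 2 at E10) and CD44High (3 libraries, labelled HSPC, all at E11). Each stage carries its own date in the labels, so stage and date cannot be told apart. The labels do not say which libraries came from separate embryos, so p-values measure the spread between these libraries. A library held between 3912350 and 8657546 counts. Levels are given as normalised CPM, counts scaled to library size after adjustment by the trimmed mean of M values (TMM), and a count of 0 allowed up to 3 counts, between 0.348 and 0.816 normalised CPM depending on the library. The reads carried no molecular identifiers, so limits and intervals of this kind cover counting error only.

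In background terms, class 3 semaphorins are secreted and most act through a plexin joined to a neuropilin, while Sema3e binds Plxnd1 directly. Semaphorins of classes 4 to 7 are mostly bound to the membrane and meet B-, A- or C-type plexins on neighbouring cells. Slit proteins are secreted and bind Robo receptors. Robo4 is the family member of endothelium. Netrins are secreted ligands of Dcc and of the Unc5 receptors, and Unc5b is the Unc5 receptor of vessels. Plxnd1, Robo4 and Unc5b each have known parts in limiting or shaping vessel growth.

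The RNA of the sorting genes followed the gates in part. Cd44 lay between 2.14 and 58.9 normalised CPM in CD44Neg and at 158 or more in the other 12 libraries, but it did not separate CD44High (171 to 340) from CD44LoKitNeg (158 to 349) or CD44LoKitPos (195 to 354). Kit was highest in CD44LoKitPos. Cdh5, which encodes VE-Cadherin, had 0 counts in all 3 CD44High libraries although the gate required the protein. The summed level of 8 endothelial markers was 3519 to 5924 normalised CPM in CD44Neg, 3723 to 8666 in CD44LoKitNeg, 766 to 1854 in CD44LoKitPos and 14.3 to 78.8 in CD44High. All 8 macrophage markers had a mean of at least 10 normalised CPM in CD44High, where their sum was 1405 to 3826. In the other populations that sum stayed at or under 40.2, with Adgre1, C1qa, C1qb and C1qc at 0 counts. The 7 erythroid markers summed to 48.2 to 255 in CD44High and the 7 mesenchymal markers to 0.272 to 210. Within CD44LoKitPos, the E9.5 library (replicate 19) carried more arterial endothelial RNA, 858 against 30.4 and 125 in the E10 libraries, and less blood RNA, 387 against 1342 and 963. In these bulk samples, fewer cells of a type and less RNA per cell cannot be told apart.

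The guidance genes differed widely in level. All 44 members were matched by name to genes of GENCODE M21 (GRCm38). Of these, 3 (Plxna2, Plxnb2 and Plxnd1) had counts in all 22 libraries and 1 (Unc5d) had none in any. A mean of at least 1 normalised CPM was reached by 27 members in CD44Neg, 28 in CD44LoKitNeg, 19 in CD44LoKitPos and 16 in CD44High. A mean of at least 10 normalised CPM was reached by 10 members in CD44Neg, 17 in CD44LoKitNeg, 9 in CD44LoKitPos and 5 in CD44High. The filter on low counts kept 31 members in the fit of all 22 libraries. The 13 left out were Ntn1, Ntn3, Ntn4, Ntn5, Robo2, Robo3, Sema3b, Sema3c, Sema3e, Sema4f, Slit1, Unc5a and Unc5d, none of which exceeded a mean of 1.03 normalised CPM in any population.

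The order of the genes by level was different in CD44High. Levels of different genes are compared here per kilobase of exon. Plxnd1 led in CD44Neg at 44.8 ± 15.04 normalised CPM per kilobase (SD, n = 10), followed by Robo4 at 20.7 ± 14.3, Sema6d at 11.6 ± 4.37 and Unc5b at 11.1 ± 5.81, and the last 3 differed by less than their spread. The same 4 genes led in CD44LoKitNeg, where Plxnd1 stood at 47.7 ± 26.4 (n = 6), Unc5b at 17.7 ± 5.95, Robo4 at 10.4 ± 5.86 and Sema6d at 10.0 ± 4.28. In CD44LoKitPos Plxnd1 still led at 7.05 ± 1.93 (n = 3). In CD44High the leading members were Plxnb2 at 11.04 ± 4.22 (n = 3), Sema4b at 5.67 ± 1.16, Plxnc1 at 3.91 ± 1.39 and Sema4d at 3.805 ± 2.89, of which Plxnc1 and Sema4d differed by less than their spread.

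**Figure D1:**
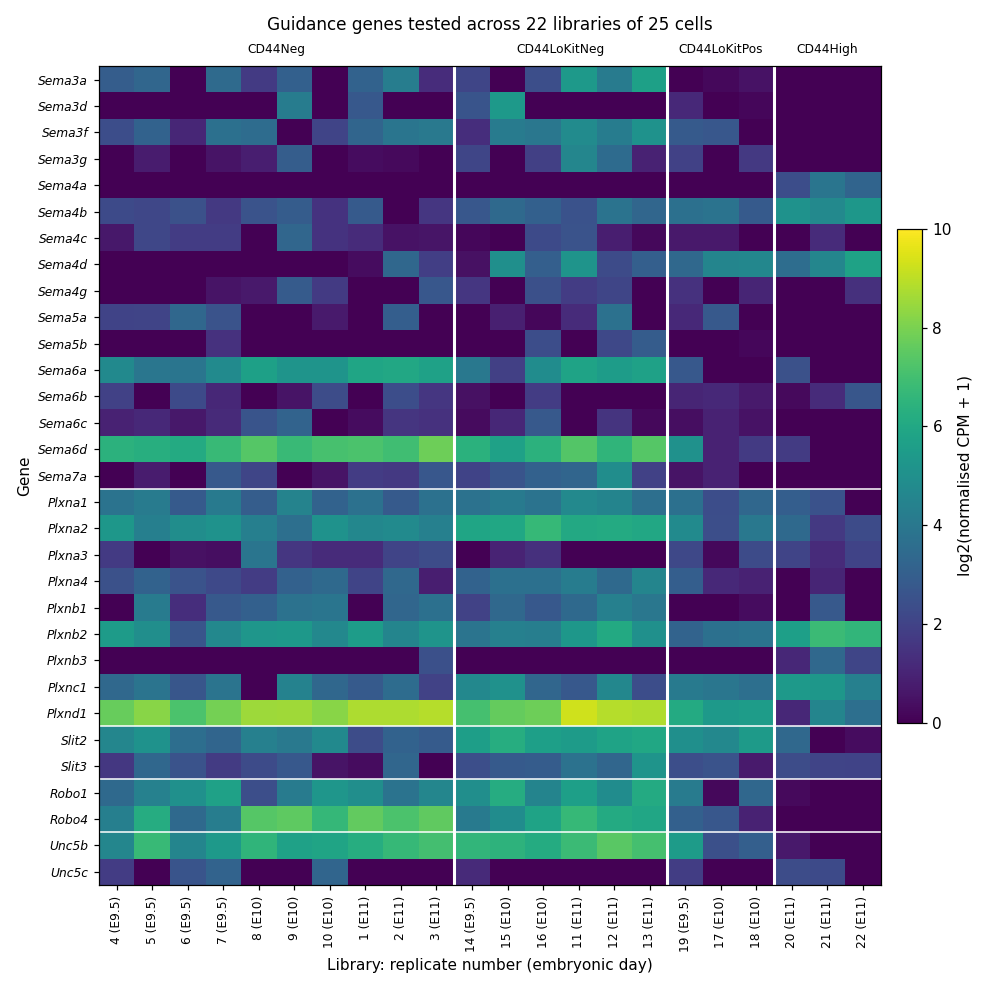
Heat map of the 31 guidance genes that entered the fit of all libraries. Rows are genes, grouped from the top into semaphorins, plexins, Slit, Robo and Unc5 genes, columns are the 22 libraries by population and stage, and colour gives log2(normalised CPM + 1) of the level. Plxnd1 is the brightest row in CD44Neg and CD44LoKitNeg, and Robo4, Sema3a and Sema3f have 0 counts in all 3 CD44High libraries.

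For some receptors the best-known ligand was hardly detected in the same cells. Sema3e, the ligand of Plxnd1, had 15 counts in all 22 libraries together, in 3 libraries, against 16538 counts of Plxnd1 in CD44Neg alone. Of the netrins, Ntn1 had counts in 4 libraries, Ntn3 in 10, Ntn4 in 1 and Ntn5 in 1, with at most 28 counts in a library. Unc5b had 3531 counts in CD44Neg and 4853 in CD44LoKitNeg. These ligands were singled out after their values were seen. The Slit and Robo pair was different, with Slit2 at 15.6 ± 9.77 normalised CPM in CD44Neg and 55.0 ± 11.3 in CD44LoKitNeg (SD, n = 10 and 6), where Robo1 was 23.7 ± 14.2 and 44.6 ± 21.2.

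The first comparison asked how the CD44LoKitNeg cells, the population labelled as hemogenic endothelium, differed from CD44Neg endothelium over all stages (6 against 10 libraries). Plxna2, a receptor of semaphorins of classes 3 and 6, and Slit2, a Robo ligand, were higher in CD44LoKitNeg. These were the only called members of the 23 tested (edgeR quasi-likelihood test, Benjamini-Hochberg adjusted p under 0.01), and none was lower. Of all 11022 genes tested, 10.2% were called in either direction and 4.94% were called higher, so 2 of 23 was near the background. At an unadjusted p under 0.05 there were 7 of the 23 (30.4%), against 32.6% of all genes. The median log2 difference of the 23 was 0.68, against 0.01 over all genes, with 17 positive and 6 negative.

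Plxna2 (chromosome 1, 194618218 to 194816869, plus strand, GRCm38) ranged from 11.6 to 38.3 normalised CPM in CD44Neg, with a median of 24.9. In CD44LoKitNeg it was 58.1 at E9.5, 61.6 and 104 at E10, and 64.9, 67.9 and 62.6 at E11. Every CD44LoKitNeg library was above every CD44Neg library. The log2 difference was 1.47 ± 0.24 (SE, adjusted p = 0.000308). It was nearly the same in the 2 stage groups, 1.51 ± 0.44 at E9.5 and E10 (adjusted p = 0.0360) and 1.49 ± 0.56 at E11 (adjusted p = 0.112), neither of which was called on its own. Over all stages Sema4d was called as well without CD44Neg replicate 2 (adjusted p = 0.00638, against 0.0585 with it).

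Slit2 (chromosome 5, 47983138 to 48307733, plus strand) ranged from 3.97 to 33.6 normalised CPM in CD44Neg, with a median of 13.3. In CD44LoKitNeg it was 47.5 at E9.5, 74.5 and 49.0 at E10, and 43.3, 55.0 and 60.6 at E11. These groups did not overlap either. The log2 difference was 1.83 ± 0.37 (adjusted p = 0.00174), and it was not called when the same contrast was taken from all 22 libraries in 4 populations (1.82, adjusted p = 0.0181). At E11 the CD44Neg libraries held only 3.97, 7.78 and 6.35 normalised CPM, and the log2 difference there was 3.12 ± 0.86 (adjusted p = 0.0276), against 1.54 ± 0.63 at E9.5 and E10 (adjusted p = 0.131). The E11 difference was called when only E11 CD44Neg and CD44LoKitNeg libraries or all libraries but CD44High replicate 20 or 21 were fitted (adjusted p = 0.00350, 0.00102 and 0.00913). The difference between these stage groups was itself not called (1.59 ± 1.05 on the log2 scale, adjusted p = 0.691).

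Split by stage group, CD44LoKitNeg and CD44Neg differed in 1 of 31 members at E9.5 and E10 (3 against 7 libraries), against 2.20% of all 12949 genes tested. This was Sema4d, a membrane semaphorin that binds Plxnb1 and Plxnb2 and is well known on blood cells. It had 0 counts in all 7 CD44Neg libraries of these stages. In CD44LoKitNeg it was 0.348 normalised CPM at E9.5, which is 3 counts, and 30.7 and 7.17 at E10. Its mean was at least 21.2-fold higher than in CD44Neg, taking 3 counts per library as the floor (adjusted p = 0.00211). With 0 counts in CD44Neg the gene passed the filter through other groups. Its direction was thus fixed, and the adjusted p supports nothing beyond the counts. The call rested on the 30.7 library: without CD44LoKitNeg replicate 15 the bound was 6.24-fold and the adjusted p was 0.0162. At these stages the summed blood markers moved with Sema4d, at 46.0, 208 and 152 normalised CPM in these CD44LoKitNeg libraries in the same order and 16.4 to 44.4 in CD44Neg, and their part in it was not tested. In a fit of only the CD44Neg and CD44LoKitNeg libraries of these stages the gene did not pass the filter on low counts and was not tested. At E11 it was 34.8, 3.88 and 7.13 in CD44LoKitNeg and 0.265, 9.14 and 2.63 in CD44Neg, groups that overlapped (log2 difference 1.91 ± 1.31, adjusted p = 0.432). The blood sums of these E11 CD44LoKitNeg libraries were 138, 154 and 104, which did not follow the order of Sema4d.

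At E11 none of the 31 members was called between CD44LoKitNeg and CD44Neg by edgeR, against 2.89% of all genes. At an unadjusted p under 0.05 there were 7 (22.6%, against 22.7% of all genes), DESeq2 called 1 (Slit2, against 6.73% of all genes) and limma voom called 0 (against 4.90%). The test of whether the population difference changed with stage called 0 of 31 members, against 0.0849% of all genes, with 4 at an unadjusted p under 0.05 (12.9%, against 9.83% of all genes) and 0 by DESeq2 or limma voom, which called 71 and 10 of all genes. Between CD44LoKitNeg libraries of E11 and of E9.5 and E10, 0 of 31 members were called, against 1.20% of all genes, with 6 at an unadjusted p under 0.05 (19.4%, against 18.2% of all genes), 0 by DESeq2 and 1 by limma voom (Plxnd1), which called 3.63% and 2.76% of all genes. Plxnd1 was 132 at E9.5, 200 and 219 at E10, and 624, 468 and 446 normalised CPM at E11 in these cells, a log2 difference of 1.48 ± 0.50 (adjusted p = 0.0978). The summed endothelial markers moved with it, from 3723 to 5004 at E9.5 and E10 and from 7230 to 8666 at E11, and their part in it was not tested. The share of Rn45s counts in these CD44LoKitNeg libraries was 7.29% to 11.1% at E9.5 and E10 and 17.4% to 19.2% at E11. A fit with Rn45s left out called 0 members for stage in CD44LoKitNeg (1.09% of all genes).

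**Figure D2:**
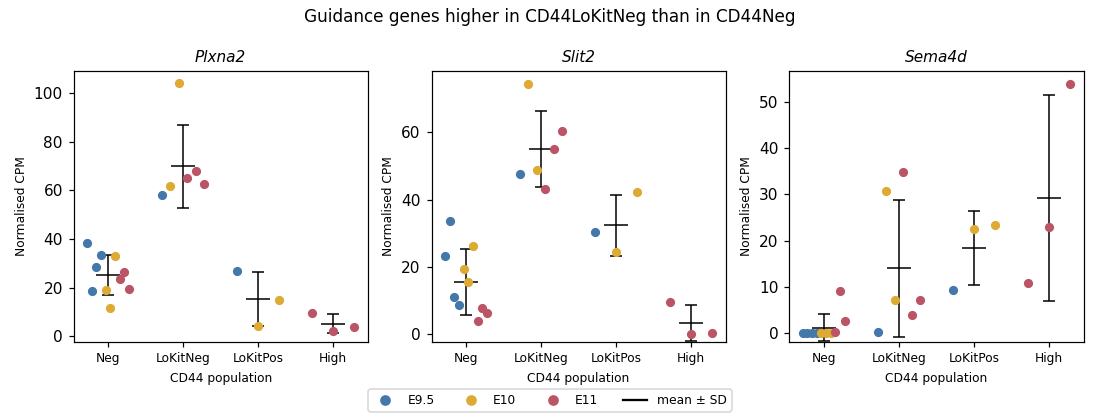
Normalised CPM of Plxna2, Slit2 and Sema4d in each library, by population on the x axis and coloured by stage, with the mean and SD of each population in black. All 6 CD44LoKitNeg libraries lie above all 10 CD44Neg libraries for Plxna2 and Slit2, and Sema4d is at 0 in the 7 CD44Neg libraries of E9.5 and E10.

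A few co-receptors and effectors of these families also differed between CD44LoKitNeg and CD44Neg. A list of 31 co-receptors and partner proteins and 42 effectors was read beside the members, of which 51 genes were tested here. It held 3 genes called higher and 4 called lower, against 10.2% of all genes called and 4.94% called higher. By stage group, of 58 list genes tested, 0 were called higher and 1 lower at E9.5 and E10, against 2.20% of all genes. At E11, 0 were called higher and 2 lower, against 2.89% of all genes. Nrp1, the neuropilin that pairs with A-type plexins and also binds VEGF, rose from 400 ± 75.3 (SD, n = 10) to 1150 ± 238 normalised CPM (n = 6), a log2 difference of 1.53 ± 0.15 (adjusted p = 2.60e-06). With all 22 libraries in 4 populations its adjusted p was 0.0375. By stage group its log2 difference was 1.30 ± 0.67 at E9.5 and E10 (adjusted p = 0.239) and 1.76 ± 0.85 at E11 (adjusted p = 0.220). Nrp2, a neuropilin of veins and lymphatics that is also among the 4 venous markers, fell from 81.4 ± 39.3 to 2.02 ± 2.59 (-5.30 ± 0.81, adjusted p = 0.000156). The summed level of the 4 venous markers moved with it, from 500 to 1117 in CD44Neg and from 43.4 to 210 in CD44LoKitNeg, and that of 7 arterial markers from 448 to 1177 and from 2107 to 4869. Their part in the guidance genes' differences was not tested. Met, the receptor tyrosine kinase that B-type plexins can engage, rose from 2.33 ± 3.49 to 78.3 ± 40.7 (5.10 ± 0.84, adjusted p = 0.000308). The semaphorin effector Crmp1 (-2.26 ± 0.30, adjusted p = 3.47e-05), the actin regulator Cfl1 (-0.73 ± 0.11, adjusted p = 0.000174) and the Unc5 partner Flrt2 (-1.78 ± 0.39, adjusted p = 0.00282) fell.

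The next comparisons asked what changed on the way to the Kit-positive cells, at E9.5 and E10. Against CD44LoKitNeg (3 against 3 libraries), 0 of 31 members were called by edgeR in CD44LoKitPos, against 0.494% of all genes. That share was itself unsteady: the 64 genes called became 6 and 12 without CD44LoKitPos replicate 17 or 18, 23, 29 and 17 without CD44LoKitNeg replicate 14, 15 or 16 and 42 without CD44Neg replicate 1. At an unadjusted p under 0.05 there were 9 members (29.0%, against 20.1% of all genes), and DESeq2 and limma voom called 2 each, Plxna2 and Plxnd1, against 4.14% and 4.09% of all genes. Plxnd1 was 67.7 at E9.5 and 42.0 and 44.7 at E10 in CD44LoKitPos, below 132, 200 and 219 in CD44LoKitNeg (log2 difference -1.84 ± 0.50, adjusted p = 0.0424). Plxna2 was 26.7, 4.34 and 14.9, below 58.1, 61.6 and 104 (-2.28 ± 0.58, adjusted p = 0.0297). The median log2 difference of the 31 members was -1.52, against 0 over all genes, with 6 members higher and 23 lower. The E9.5 library of CD44LoKitPos stood apart here: without it (replicate 19), 4 members were called lower, namely Plxna2, Sema6a, Sema6d and Unc5b, with adjusted p of 0.00804, 0.00330, 9.61e-05 and 0.00109, in a fit that called 351 of all genes (2.59%) against 64 with it. Without CD44High replicate 20, Plxnd1 alone was called (adjusted p = 0.00502).

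Against CD44Neg of the same stages (3 against 7 libraries), 3 of 31 members were called in CD44LoKitPos, against 2.95% of all genes. Sema4d was higher, at 9.35, 22.5 and 23.5 normalised CPM against 0 counts in all 7 CD44Neg libraries, a mean at least 30.6-fold higher (adjusted p = 0.000867). It was not called with stages pooled, where CD44Neg libraries of E11 enter (adjusted p = 0.0555). In the stage-matched test the 0 counts in CD44Neg fixed its direction, so that adjusted p supports nothing beyond the counts. Plxnd1 was lower, with a mean of 51.5 ± 14.1 (n = 3) against 276 ± 87.5 (n = 7), a log2 difference of -2.42 ± 0.47 (adjusted p = 0.00279). All 3 libraries were below the lowest CD44Neg library at 141. Robo4 was lower too, at 7.39, 5.58 and 0.934 against 9.68 to 185 (-4.13 ± 0.90, adjusted p = 0.00763). The summed blood markers moved with Sema4d, at 387 to 1342 in CD44LoKitPos and 16.4 to 44.4 in these CD44Neg libraries, and the summed endothelial markers with Plxnd1 and Robo4, at 766 to 1854 and 3519 to 5482. Their part in these differences was not tested.

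The 2 lower differences were of like size in the fits that lost their call by leaving out 1 library. Plxnd1 was not called without CD44LoKitPos replicate 17 or 18, which left 1 called member each (log2 difference -2.29 and -2.33, adjusted p = 0.0279 at most). Robo4 was not called by limma voom (adjusted p = 0.163) or without any 1 of CD44Neg replicates 1, 2, 3, 5, 8, 9 and 10 or CD44LoKitPos replicates 17, 18 and 19 (log2 difference between -4.66 and -3.65, adjusted p between 0.0104 and 0.0562). Without replicate 19, 5 members were called, now with Sema6a, Sema6d and Unc5b lower (adjusted p = 0.000862, 2.30e-05 and 0.00166), while the share of all genes called rose to 4.52%. Without replicate 17 or 18 that share was 0.894% or 0.887%. In that E9.5 library Unc5b stood at 43.6, Sema6d at 32.0 and Robo1 at 16.7 normalised CPM, above the E10 libraries at 4.50 and 7.20, 0.931 and 2.27, and 0.155 and 9.20. Its higher arterial sum moved with these values, and its part in them was not tested.

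The largest differences were at E11, between CD44High and the endothelial populations. Against CD44LoKitNeg (3 against 3 libraries), 11 of 31 members were called, all lower in CD44High: the plexins Plxna2, Plxna4 and Plxnd1, the semaphorins Sema3a, Sema3f, Sema6a and Sema6d, the receptors Robo1, Robo4 and Unc5b, and the ligand Slit2. Over all genes 18.5% were called and 8.34% were called lower. The summed endothelial markers moved with these members, at 7230 to 8666 normalised CPM in CD44LoKitNeg of E11 and 14.3 to 78.8 in CD44High, where Cdh5 had 0 counts, and their part in the differences was not tested. The median log2 difference of the 31 members was -3.62 as fitted and -2.46 with genes at 0 in 1 group set at their bound, against 0.05 and 0.03 over all genes. A member kept by the filter through the endothelial libraries alone had to be lower in CD44High, so this count is a description of the 31 and not of all 44 members. Against CD44Neg of E11 (3 against 3), 7 of 31 were called, all lower: Plxnd1, Robo1, Robo4, Sema3f, Sema6a, Sema6d and Unc5b, where 9.92% of all genes were called and 6.18% called lower and the endothelial sum in CD44Neg was 5662 to 5924. These comparisons share the CD44High libraries.

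Robo4 (chromosome 9, 37401897 to 37415115, plus strand) had 0 counts in all 3 CD44High libraries. At E11 it was 104, 69.1 and 59.9 normalised CPM in CD44LoKitNeg and 195, 144 and 188 in CD44Neg. Its mean in CD44High was thus at least 105-fold lower than in CD44LoKitNeg (adjusted p = 4.86e-05) and at least 239-fold lower than in CD44Neg (adjusted p = 2.31e-05). With 0 counts in CD44High it could only come out lower, so these adjusted p-values support nothing beyond the counts. Among E11 libraries CD44LoKitNeg lay below CD44Neg without overlap, although that difference was not called (-1.18 ± 0.83, adjusted p = 0.446).

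Plxnd1 (chromosome 6, 115954811 to 115995005, minus strand) was 1.19, 22.4 and 11.7 normalised CPM in CD44High. The E11 libraries of CD44LoKitNeg stood at 624, 468 and 446 and those of CD44Neg at 430, 436 and 474. All 3 CD44High libraries were more than an order of magnitude below them. The log2 differences were -5.47 ± 0.60 (adjusted p = 5.74e-07) and -5.27 ± 0.59 (adjusted p = 1.31e-06). Between the endothelial populations themselves the gene hardly differed over all stages (0.10 ± 0.30, adjusted p = 0.862).

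Unc5b (chromosome 10, 60762593 to 60831581, minus strand) had 3 counts in all of CD44High, all in replicate 20. It was 111, 174 and 131 normalised CPM in CD44LoKitNeg and 73.9, 104 and 127 in CD44Neg at E11. The ratio to CD44High was 580 (95% Poisson interval of the CD44High counts 198 to 2812) for CD44LoKitNeg and 441 (151 to 2140) for CD44Neg, with adjusted p of 1.21e-06 and 3.06e-06. Robo1 (chromosome 16, 72308306 to 73046095, plus strand), the widely expressed Slit receptor, had 1 count in CD44High. It was 48.4, 28.5 and 67.5 in CD44LoKitNeg and 29.4, 13.04 and 22.8 in CD44Neg at E11, ratios of 587 (105 to 23166) and 264 (47.4 to 10424) with adjusted p of 7.17e-05 and 0.000455.

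The promoters of Robo4, Plxnd1 and Unc5b are shown because these 3 receptors were among the 4 highest members in CD44Neg and CD44LoKitNeg and were called lower in CD44High against both. They are RefSeq sequences on GRCm38.p6, written 5′ to 3′ on the strand of the gene, and run from 250 bases before the RefSeq start up to the first exon base in GENCODE M21, which for Robo4 leaves out the last 75 bases. Capitals mark the letters GGAA or their reverse complement TTCC, the core bound by ETS factors.

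Robo4, chr9:37401722-37401896, plus strand: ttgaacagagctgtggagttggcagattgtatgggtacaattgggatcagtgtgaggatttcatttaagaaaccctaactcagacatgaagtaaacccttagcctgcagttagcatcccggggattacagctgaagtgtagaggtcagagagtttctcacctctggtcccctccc

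Plxnd1, chr6:115995006-115995255, minus strand: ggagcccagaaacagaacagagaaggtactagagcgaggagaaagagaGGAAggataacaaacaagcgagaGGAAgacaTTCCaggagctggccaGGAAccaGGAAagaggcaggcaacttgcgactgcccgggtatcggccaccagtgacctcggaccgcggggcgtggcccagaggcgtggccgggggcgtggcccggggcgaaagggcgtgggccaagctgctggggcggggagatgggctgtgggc

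Unc5b, chr10:60831582-60831831, minus strand: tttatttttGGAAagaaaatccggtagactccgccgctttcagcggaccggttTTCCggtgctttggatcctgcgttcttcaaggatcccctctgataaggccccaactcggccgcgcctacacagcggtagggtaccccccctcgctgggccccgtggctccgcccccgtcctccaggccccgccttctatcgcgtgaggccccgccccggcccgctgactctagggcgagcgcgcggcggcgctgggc

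The core matched 3 times in the 250 bases before the Robo4 start, none of them whole in the printed part, 5 times for Plxnd1 and 2 times for Unc5b. The median over all 32851 RefSeq promoters of that length was 3 matches, and 93.4% held at least 1. The RUNX letters TGTGGT or ACCACA, which do not overlap the ETS core, were not in any of the 3 windows and were in 14.0% of all. A match of letters is a description and not a site. Of the 44 members, 36 had an entry in the promoter table.

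The semaphorins that fell were of the secreted class 3 and of class 6. Sema6d, a membrane semaphorin that binds Plxna1, was 2.38, 0 and 0 normalised CPM in CD44High against 158, 91.6 and 165 in CD44LoKitNeg and 141, 121 and 223 in CD44Neg at E11. The log2 differences were -7.23 ± 1.08 (adjusted p = 2.77e-05) and -7.45 ± 1.08 (adjusted p = 3.19e-05). Sema6a, which binds Plxna2 and Plxna4, was 4.55, 0 and 0 against 55.0, 45.1 and 51.6 and against 58.0, 63.0 and 51.6 (-4.95 ± 1.32, adjusted p = 0.00661, and -5.14 ± 1.33, adjusted p = 0.00873). Only replicate 20 of CD44High held any of either. On leaving out 1 library the log2 differences reached -12.7 and -12.9 for Sema6d and -11.2 and -11.4 for Sema6a. The Sema6a calls were the weakest: the first was lost without CD44LoKitNeg replicate 11, 12 or 13 or CD44High replicate 21 or 22 (adjusted p up to 0.0281), and the second without any 1 of 15 libraries (CD44Neg replicates 1 to 5 and 7 to 10, CD44LoKitNeg replicates 11 to 14, CD44High replicates 21 and 22, adjusted p up to 0.0385). With stages pooled they had adjusted p of 0.0150 and 0.0117.

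Sema3f and Sema3a, secreted ligands of the neuropilins, had 0 counts in all 3 CD44High libraries. Both could thus only come out lower there, and their adjusted p-values against CD44High support nothing beyond the counts. Sema3f was 27.3, 17.6 and 33.1 normalised CPM in CD44LoKitNeg and 8.48, 13.6 and 15.3 in CD44Neg at E11, at least 35.3-fold and 16.9-fold above CD44High (adjusted p = 0.00159 and 0.00559). Sema3a was 41.1, 16.7 and 50.03 in CD44LoKitNeg, at least 48.8-fold above (adjusted p = 0.00304), and 7.95, 17.9 and 1.39 in CD44Neg, where it was not called (adjusted p = 0.0168, or 0.00887 and 0.00999 without CD44Neg replicate 6 or 10). Before E11 Sema3a in CD44LoKitNeg was 3.25, 0 and 4.33, below all 3 later libraries, without a call for stage (adjusted p = 0.217). The summed mesenchymal markers of these libraries moved with it, at 14.7, 11.1 and 4.19 before E11 and at 65.7, 29.2 and 99.1 at E11 in the order of the libraries above, and their part in it was not tested. The Sema3a call was lost without any 1 of the CD44High libraries (adjusted p up to 0.0146), and the Sema3f call against CD44Neg without CD44Neg replicate 2 or 3 or any 1 CD44High library (up to 0.0272).

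Plxna2 and Slit2, higher in CD44LoKitNeg than in CD44Neg over all stages, were low again in CD44High, unlike Sema4d. Plxna2 was 9.70, 2.13 and 3.81 normalised CPM in CD44High, a log2 difference of -3.62 ± 0.62 from CD44LoKitNeg (adjusted p = 0.000127), and missed the threshold against CD44Neg (-2.13 ± 0.59, adjusted p = 0.0142). Slit2 was 9.502, 0 and 0.272, a difference of -3.96 ± 0.90 from CD44LoKitNeg (adjusted p = 0.00187). CD44High replicate 20 held 48 of its 49 counts in CD44High, and without that library the difference was -8.53 ± 0.94 (adjusted p = 1.42e-06). The arterial sum of that library was 43.2, against 0.799 and 2.72 in replicates 21 and 22, and its mesenchymal sum 210, against 139 and 0.272. Its endothelial sum was the lowest, 14.3 against 78.8 and 31.3. The part of these sums in the Slit2 counts was not tested. Against CD44Neg of E11, which was itself low in Slit2, the difference was -0.84 ± 0.84 (adjusted p = 0.558). Without CD44High replicate 20, Slit2 and Plxna2 were called lower than in CD44Neg too (-5.36 ± 0.92, adjusted p = 0.000322, and -3.04 ± 0.69, adjusted p = 0.00420), Plxna2 also without CD44LoKitPos replicate 17 (0.00613). Slit2 in CD44LoKitPos, at 30.3, 24.5 and 42.2, lay between, with all 3 libraries below the 3 of CD44LoKitNeg but no call (-0.82 ± 0.79, adjusted p = 0.628). Plxna4, a receptor for class 3 and class 6 semaphorins, was 17.5, 9.83 and 22.6 in CD44LoKitNeg at E11 and 0, 1.07 and 0 in CD44High (-5.51 ± 1.35, adjusted p = 0.00362). Its call was lost without CD44LoKitNeg replicate 13 or CD44High replicate 20 or 22 (adjusted p up to 0.0182).

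**Figure D3:**
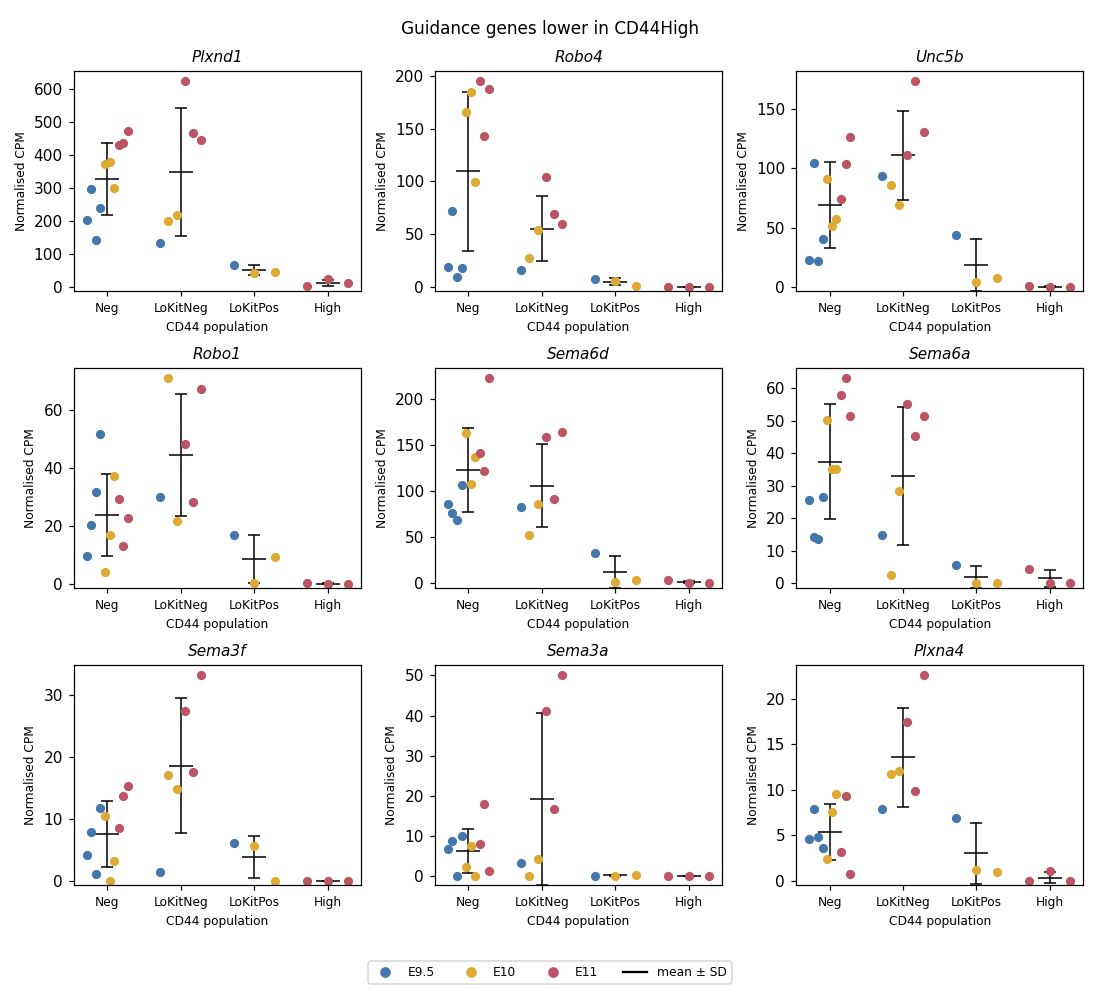
Normalised CPM of 9 guidance genes called lower in CD44High, in each library, by population on the x axis and coloured by stage, with the mean and SD of each population in black. Robo4, Sema3f and Sema3a are at 0 in CD44High, Plxnd1 is at 22.4 or lower there, and in CD44Neg the E11 points of Robo4, Plxnd1, Sema6d and Sema6a lie above the E9.5 points.

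CD44High could be set against CD44LoKitPos only across stages, E11 against E9.5 and E10, where population, stage and date cannot be told apart. Here 3 of 31 members were called, against 3.42% of all genes. Plxnb2, a receptor of class 4 semaphorins, was higher in CD44High, at 48.7, 111 and 95.8 against 7.99, 11.9 and 12.9 normalised CPM (log2 difference 2.96 ± 0.56, adjusted p = 0.00148, or 0.0137 without CD44LoKitPos replicate 19). It had no call against CD44LoKitNeg or CD44Neg of E11, at 38.3, 66.9 and 31.6 and at 44.5, 22.2 and 35.5 (0.90 ± 0.53, adjusted p = 0.207, and 1.32 ± 0.53, adjusted p = 0.0899). Its lowest mean was in CD44LoKitPos. Unc5b and Robo1 were lower in CD44High, with ratios of 75.2 (25.7 to 365) and 110 (19.7 to 4337) and adjusted p of 0.000321 and 0.00540. CD44LoKitPos replicate 19 held 289 of the 372 Unc5b counts and 111 of the 181 Robo1 counts, and without it the ratios were 24.8 (8.48 to 120.1) and 62.7 (11.2 to 2475). Neither was called by limma voom (adjusted p = 0.0207 and 0.194). The Robo1 call was also lost without CD44LoKitPos replicate 18 or 19 or any 1 CD44High library (adjusted p up to 0.0336). The summed endothelial markers moved with Unc5b and Robo1, at 766 to 1854 in CD44LoKitPos and 14.3 to 78.8 in CD44High. Their part in these differences was not tested. Without CD44High replicate 20, 5 members were called (against 3.04% of all genes), and without CD44LoKitPos replicate 19 only 1 (against 2.60%).

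With all libraries, edgeR called no member higher in CD44High than in the endothelial populations of E11, but a few class 4 semaphorins had their highest values there. DESeq2 called Sema4b and Plxna3 higher in 1 of these comparisons each and limma voom called Sema4b in 1. Without CD44Neg replicate 1, edgeR called Sema4b higher than in CD44Neg (adjusted p = 0.00737). Sema4b was 32.9, 25.0 and 38.1 normalised CPM in CD44High and at or under 13.1 in the other 19 libraries (against CD44Neg of E11 3.57 ± 0.99, adjusted p = 0.0142, and called by DESeq2, limma voom and with stages pooled). Plxnc1, a receptor of Sema7a, ranged from 19.3 to 40.6 in CD44High, from 11.7 to 16.4 in CD44LoKitPos, from 4.18 to 32.7 in CD44LoKitNeg and from 0 to 20.4 in CD44Neg. Sema4d was 10.9, 22.9 and 53.9 in CD44High, above the 3 E11 libraries of CD44Neg without a call (2.85 ± 1.35, adjusted p = 0.166). With stages pooled, where the earlier CD44Neg libraries at 0 counts enter, Sema4d was called (4.56 ± 1.24, adjusted p = 0.00869). Sema4a, known on myeloid and other immune cells and singled out after its values were seen, was 4.16, 13.8 and 8.43 in CD44High and had 0 counts in the other 19 libraries. It passed the filter through CD44High alone, so its direction was fixed. Its tests are not described here, although it is in the counts of members tested. Plxnb3, with 6, 35 and 12 counts in CD44High, 29 counts in CD44Neg replicate 3 and 0 in the rest, is left aside in the same way. Macrophage markers were also found in CD44High almost alone, as given above, and their part in Sema4a, Sema4b, Plxnb2 and Plxnc1 was not tested.

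**Figure D4:**
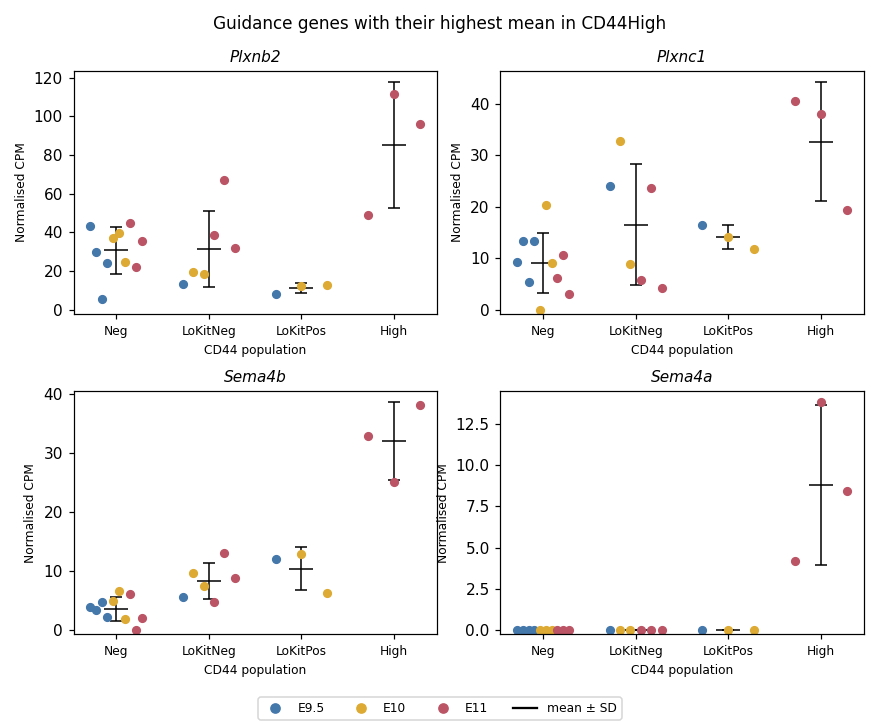
Normalised CPM of Plxnb2, Plxnc1, Sema4b and Sema4a in each library, by population on the x axis and coloured by stage, with the mean and SD of each population in black. The 3 CD44High libraries hold 48.7 to 111 for Plxnb2 and 25.0 to 38.1 for Sema4b, and Sema4a is at 0 in the other 19 libraries.

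Co-receptors and effectors were called in both directions, and most were not called. Of 58 list genes tested, 1 was called higher and none lower in CD44LoKitPos than in CD44LoKitNeg, 1 higher and 7 lower than in CD44Neg, 4 higher and 17 lower in CD44High than in CD44LoKitNeg, and 2 higher and 14 lower than in CD44Neg at E11. Over all genes the shares called in these comparisons were 0.494%, 2.95%, 18.5% and 9.92%. Kdr, the VEGF receptor and 1 of the endothelial markers, fell from 549 ± 79.4 in CD44LoKitNeg to 0.178 ± 0.307 in CD44High (n = 3 each, adjusted p = 9.53e-10) and was also lower in CD44LoKitPos than in CD44Neg (-3.09 ± 0.45, adjusted p = 0.000232). Ablim1, an actin-binding effector of netrin signalling, and Crmp1 had 0 counts in CD44High, against 106 ± 13.4 and 31.4 ± 15.3 in CD44LoKitNeg (adjusted p = 2.53e-09 and 6.29e-07). Both could thus only come out lower there, so these adjusted p-values support nothing beyond the counts. Tyrobp, the immune adaptor that can join Plxna1 and Trem2, had 0 counts in all 16 CD44Neg and CD44LoKitNeg libraries and stood at 25.3 ± 11.95 in CD44LoKitPos and 823 ± 370 in CD44High (SD, n = 3 each). It passed the filter only where it was high, so its direction was fixed and it supports nothing, although it is in the counts above. The summed blood markers moved with it, at 46.0 to 208 in CD44LoKitNeg, 387 to 1342 in CD44LoKitPos and 1528 to 3029 in CD44High, as did the macrophage markers in CD44High, and their part in it was not tested. The Slit effector Srgap1 fell from 58.6 ± 15.6 to 0.816 ± 1.41 (-6.22 ± 0.85, adjusted p = 1.02e-05), and Dock1, a Rac activator downstream of netrin receptors, from 118 ± 10.7 to 20.9 ± 6.67 (-2.50 ± 0.33, adjusted p = 6.86e-06).

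All 3 stages had replicates only in CD44Neg (4, 3 and 3 libraries). Of the 25 members tested there, Robo4 had the smallest adjusted p for E11 against E9.5. It was 19.1, 72.1, 9.68 and 18.1 normalised CPM at E9.5, 165, 185 and 99.7 at E10, and 195, 144 and 188 at E11, so that each later library was above each E9.5 library. The log2 difference was 2.59 ± 0.50 for E11 against E9.5 (adjusted p = 0.0120) and 2.36 ± 0.50 for E10 against E9.5 (adjusted p = 0.0385), both short of the threshold. The E9.5 library at 72.1 decided this: without CD44Neg replicate 5 the difference was called for both, at 3.49 ± 0.33 (adjusted p = 0.000284) and 3.26 ± 0.33 (adjusted p = 0.00171).

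Plxnd1 was 202, 297, 141 and 238 at E9.5, 373, 379 and 300 at E10 and 430, 436 and 474 at E11 (E11 against E9.5 1.05 ± 0.21, adjusted p = 0.0143, and 0.00757 without CD44Neg replicate 5). Sema6a went from 13.8 to 26.7 at E9.5 to 51.6 to 63.0 at E11 (1.53 ± 0.34, adjusted p = 0.0231), and Sema6d from 68.3 to 106 to 121 to 223 (0.96 ± 0.25, adjusted p = 0.0494). In all 3 genes every E11 library was above every E9.5 library. The summed endothelial markers moved with these genes and Robo4 in CD44Neg, at 3519 to 4297 normalised CPM at E9.5 and 4909 to 5924 at E10 and E11, and their part in the differences was not tested. The share of Rn45s counts was 1.92% to 13.8% at E9.5, 9.11% to 19.3% at E10 and 15.2% to 17.9% at E11. A fit with Rn45s left out called 0 members for E11 against E9.5 (0.775% of all genes). By edgeR 0 of 25 members were called for E11 against E9.5, 0 for E10 against E9.5 and 0 for E11 against E10, where 0.684%, 0.0178% and 0% of all 11250 genes tested were called. At an unadjusted p under 0.05 there were 7, 4 and 2 members, DESeq2 called 4, 1 and 0, and limma voom called 2, 1 and 0. Over all genes the shares at the unadjusted p were 17.1%, 15.2% and 8.68%, those of DESeq2 3.81%, 2.05% and 0.400%, and those of limma voom 1.53%, 0.196% and 0.0356%. For E11 against E10, where edgeR called no gene at all, 977 genes had an unadjusted p under 0.05, DESeq2 called 45 and limma voom 4. The date in the labels changes with the stage, so these differences cannot be told apart from it.

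The remaining members were low or did not pass the test. Plxna1, a receptor for class 3 and class 6 semaphorins, ranged from 6.03 to 21.3 normalised CPM in CD44Neg, 11.5 to 25.3 in CD44LoKitNeg, 4.19 to 11.8 in CD44LoKitPos and 0 to 6.93 in CD44High. Plxnb1, a receptor of Sema4d, ranged from 0 to 16.9, 2.90 to 19.4, 0 to 0.267 and 0 to 5.86 in the same order. Where Sema4d reached its values in CD44LoKitPos, this receptor had 2 counts in all. Slit3 ranged from 0 to 9.07, 4.29 to 34.7, 0.667 to 4.96 and 2.99 to 3.96. DESeq2 called Plxna1 lower in CD44High than in CD44LoKitNeg of E11 (adjusted p = 0.00675). It also called Plxnb1 lower in CD44LoKitPos than in CD44Neg of E9.5 and E10 (adjusted p = 0.00283). The members that were tested, had a mean under 10 normalised CPM in every population and were not called by the edgeR test of all libraries were Plxna3, Plxnb3, Sema3d, Sema3g, Sema4a, Sema4c, Sema4g, Sema5a, Sema5b, Sema6b, Sema6c, Sema7a and Unc5c. Sema4a and Plxnb3 left aside, Plxna3, Sema3g and Sema7a of these were called by another tool or setting, Sema7a among them in CD44High against CD44LoKitNeg in 5 edgeR fits that left out 1 library (lower, adjusted p between 0.00704 and 0.00867).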

How the data were processed

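RNA of 22 libraries of 25 sorted cells was amplified by Smart-seq2 and sequenced on an Illumina NextSeq. The authors clipped adaptors with FASTX, mapped with RNA STAR and counted reads per gene with htseq-count. The deposited values are raw counts, whole numbers without normalization, and the submitters' processing notes name FastQC, HTSeq and mm10. The annotation and strand setting are not given in the sources used here, so reads of overlapping genes may not be separable. Of the members named with values, Plxna1 shares 10.7% of its exon bases with an opposite-strand gene.

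Counts were tested with the quasi-likelihood test of edgeR 4.0.16 (R 4.3.3) after filterByExpr (minimum count 10) and TMM scaling, with Benjamini-Hochberg adjustment over all genes tested and calls at adjusted p under 0.01. CD44LoKitNeg was compared with CD44Neg over 16 libraries, stages of CD44Neg over its 10 libraries, and the rest in 1 fit of 22 libraries in 6 groups of population and stage (E9.5 with E10, and E11). Log2 differences are from the fit, their SEs are the difference divided by the square root of its F statistic, and levels are TMM-normalised CPM. The smallest difference between replicates of 1 population and stage, a chi-square of 17.0 per degree of freedom, was above sampling noise. Alternatives were DESeq2 1.42.0 size factors and Wald test, limma voom (3.58.1), no filter, Rn45s left out, each library left out, a stage covariate, pooled stages and, added after the data were seen, a term for E10 against E9.5 (the label date). The fits were tested on simulated data. Members and gene lists were chosen with earlier results of these data known. Members called in any comparison are named with values, uncalled members with ranges if their mean reached 10 normalised CPM, and at most 6 list genes in a comparison by smallest adjusted p.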

Additional observations from a re-analysis of the deposited data

Results flagged for a closer look

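Values were tested for a library far from the others in CD44Neg (10 libraries) and CD44LoKitNeg (6 libraries), on log2(normalised CPM + 1), in 36 groups, of which 4 stood out. Chance flags about 1 in 20 groups. Plxna2 in CD44LoKitNeg replicate 16 (E10) was 103.9 normalised CPM, against 58.1 to 67.9 in the other 5. Sema3f in CD44LoKitNeg replicate 14 (E9.5) was 1.51, against 14.7 to 33.1. Plxnb2 in CD44Neg replicate 6 (E9.5) was 5.21, against 22.2 to 44.5 in the other 9, and that library also had the fewest genes detected (10825) and the lowest share of Rn45s counts (1.92%). Sema4b in CD44Neg replicate 2 (E11) was 0, against 1.78 to 6.49.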

How the results depend on the processing

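Of 321 recounts of called members, 290 stayed within 1.5 times the reported count. Of 27 calls of a member in a comparison, 14 were kept under every alternative run, 13 were lost in at least 1, and none changed sign. The other 31 recounts moved by more than 1.5 times, and the cause was not tested. With the DESeq2 Wald test, 1 member was called between CD44LoKitNeg and CD44Neg at E11, 2 and 6 in CD44LoKitPos against CD44LoKitNeg and CD44Neg, 11 in CD44High against CD44Neg, 8 against CD44LoKitPos, and in CD44Neg 4 for E11 and 1 for E10 against E9.5. The shares of all genes were 6.73%, 4.14%, 6.12%, 14.8%, 6.22%, 3.81% and 2.05% in this order. With limma voom, 3 were called between CD44LoKitNeg and CD44Neg at E9.5 and E10, 2 in CD44LoKitPos against CD44LoKitNeg, 1 for stage in CD44LoKitNeg, and 2 and 1 for the same stage pairs in CD44Neg, against 5.82%, 4.09%, 2.76%, 1.53% and 0.196% of all genes. With no filter, 5 were called in CD44High against CD44LoKitPos and 2 and 1 for those stage pairs (2.93%, 1.81% and 0.753% of all genes). With all 22 libraries in 4 populations, 1 was called in CD44LoKitNeg against CD44Neg (8.47% of all genes), and with stages pooled 2 in CD44LoKitPos against CD44LoKitNeg (4.26%). With only the libraries of the stage group, 0 were called at E9.5 and E10, where Sema4d was not tested, and 1 at E11 (2.69% and 3.41% of all genes). With E10 against E9.5, which is also the label date, as a term (chosen after seeing the data), the E9.5 and E10 comparisons called 1, 0 and 3 members, as many as without it, and 284, 130 and 370 of all genes, against 285, 64 and 382. Leaving out 1 library gave 2 to 3 called members over all stages, 0 to 1 at E9.5 and E10 and 0 to 1 at E11 for CD44LoKitNeg against CD44Neg, 0 to 4 and 1 to 5 for CD44LoKitPos against CD44LoKitNeg and CD44Neg, 8 to 12 and 5 to 8 for CD44High against these, 1 to 5 for CD44High against CD44LoKitPos, 0 to 2 for E11 and 0 to 1 for E10 against E9.5 in CD44Neg, and 0 elsewhere. The genes called over the whole table then ranged from 875 to 1222, 47 to 377 and 143 to 397 for CD44LoKitNeg against CD44Neg, 6 to 351 and 120 to 612 for CD44LoKitPos, 1713 to 2477 and 900 to 1329 for CD44High against these, 313 to 453 for CD44High against CD44LoKitPos, 8 to 98 and 0 to 3 for the stage pairs, 0 to 1 for E11 against E10, 43 to 184 for stage in CD44LoKitNeg and 6 to 21 for the change of the population difference with stage. The 13 members left out by the filter had means of at most 1.03 normalised CPM, and low RNA and limited depth cannot be told apart for them.

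No paired analysis was possible because the replicate numbers run from 1 to 22 over the whole series and no groups share a number. Label dates are shared between populations and entered as the term above.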
